A study of Homo sapiens with 18 samples.

Results

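Cells make cholesterol and fatty acids from acetyl-CoA through enzymes whose genes are largely switched on together by the sterol regulatory element-binding proteins, SREBPs. The data set was examined for 32 of these genes, taken from a list by name, and all 32 were found among the 15519 genes that passed the filter on low counts. They fall into 4 roles. Of the members, 8 act on the way from acetyl-CoA to squalene, 10 act from squalene to cholesterol, 6 control SREBPs or carry sterol, and 8 make or modify fatty acids and glycerolipids.

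RNA was sequenced from HEK293 cells, a human embryonic kidney line, in wildtype form and in 2 lines made by CRISPR–Cas9, of which 1 lacked β-arrestin1 and β-arrestin2 (β-arrestin1/2 KO) and 1 lacked the G protein subunit Gαs (Gαs KO). All 6 groups carried a transfected plasmid for the wild type β2-adrenergic receptor, were starved of serum overnight and, 48 h after transfection, were kept for 1 h with vehicle (basal) or with 1 μM isoproterenol, an agonist of that receptor. Each group had 3 biological replicates, 18 libraries in all, with 17908597 to 25019834 read pairs counted per library. The sources used here do not say whether each KO line is a single clone. The receptor acts through Gαs and cyclic AMP, and β-arrestins uncouple it and take it into the cell, so the design asks which changes in RNA need either protein.

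SREBPs are made as membrane proteins of the endoplasmic reticulum. Their escort SCAP moves them to the Golgi apparatus, where proteases release the active part, when membrane sterol is low, and the INSIG proteins hold SCAP back when sterol is plentiful. SREBF2 codes for the form known mainly for cholesterol genes, and SREBF1 for forms known mainly for fatty acid genes. INSIG1 is itself an SREBP target.

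Sequences just upstream of 4 members are shown, because IDI1 and INSIG1 were the 2 members called after isoproterenol in wildtype cells as well as in the β-arrestin1/2 KO line. HMGCS1 and STARD4 are added as the other members with the smallest adjusted p-values in that line once a library that stood apart was left out. They come from RefSeq (GRCh38.p14) and run 5′ to 3′ on the strand of the gene. Each begins 250 bases before the RefSeq start that lies nearest to the start of the member's most abundant transcript, and it ends where the annotated exons begin. Capitals mark CCAAT, the box bound by NF-Y, and TGACG, which is also the first part of the cAMP response element TGACGTCA. The reverse complements ATTGG and CGTCA mark the same motifs on the other strand.
IDI1, chr10:1049171-1049369, minus strand: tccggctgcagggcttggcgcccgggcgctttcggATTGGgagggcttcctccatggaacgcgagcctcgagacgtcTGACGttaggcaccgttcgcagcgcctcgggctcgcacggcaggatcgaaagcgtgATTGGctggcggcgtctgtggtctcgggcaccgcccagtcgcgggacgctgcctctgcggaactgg
INSIG1, chr7:155297628-155297775, plus strand: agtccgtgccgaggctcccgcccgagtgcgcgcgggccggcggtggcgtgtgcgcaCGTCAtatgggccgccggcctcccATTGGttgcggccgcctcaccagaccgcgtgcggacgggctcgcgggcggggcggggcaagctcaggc
HMGCS1, chr5:43313513-43313662, minus strand: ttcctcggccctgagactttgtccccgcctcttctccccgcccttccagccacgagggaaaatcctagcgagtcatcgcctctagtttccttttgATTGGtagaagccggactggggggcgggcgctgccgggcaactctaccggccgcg
STARD4, chr5:111512591-111512785, minus strand: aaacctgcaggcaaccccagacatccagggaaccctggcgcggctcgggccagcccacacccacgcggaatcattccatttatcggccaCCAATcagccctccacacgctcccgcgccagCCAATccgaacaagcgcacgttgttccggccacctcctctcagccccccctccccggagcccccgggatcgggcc
CCAAT was present in all 4 stretches, and TGACG in those of IDI1 and INSIG1 only.

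Windows from 250 bases before to 50 bases after a RefSeq start were at hand for 28 of the 32 members. A gene was counted if any of its windows held the motif. There were 40 windows for the members and 35097 for all genes, so the shares also depend on windows per gene. CCAAT was found on either strand in 20 members (71.4%), against 39.7% of the 27305 genes with a window. Those 27305 genes were not limited to genes that passed the filter on low counts, as all members did. For FADS2 the CCAAT window lay 11357 bases from the start of its most abundant transcript. TGACG was found in 13 of the 28 members (46.4%), against 28.4% of all genes. Of these 13, only IDI1 and INSIG1 were called after isoproterenol with all libraries. Each of 3 longer motifs was present in 1 member, and the 30 bases around each are shown with the motif in capitals. The sterol response element TCACNCCAC (1.39% of all genes) was found in SREBF2, the E-box TCACGTGA (1.18%) in INSIG1, and the full cAMP response element TGACGTCA (2.25%) in FADS1.
SREBF2, chr22:41832961-41832990, plus strand: atgacgcgccaTCACCCCACgcaccgcttc
INSIG1, chr7:155297811-155297840, plus strand: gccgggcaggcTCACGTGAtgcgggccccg
FADS1, chr11:61817047-61817076, minus strand: cgatgcccgccTGACGTCAggaagtcgaat
These are matches of letters and not sites shown to be bound.

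The labels were first set against the targeted genes and the cell markers. GNAS, which codes for Gαs, had 1173 to 1365 normalized counts in the 6 Gαs KO libraries and 20419 to 33553 in the wildtype libraries. ARRB2 had 291 to 441 in the β-arrestin1/2 KO libraries and 1528 to 2523 in wildtype cells, whereas ARRB1 (725 to 832 against 736 to 1250) did not differ by the test (adjusted p = 0.14 for the basal libraries, edgeR quasi-likelihood test). An edit can leave transcript levels in place, so the ARRB1 level says little about the protein. Of the HEK293 markers, VIM (11837 to 28889) and LIN28B (1017 to 2217) were abundant, INA was at 27.1 to 233, and NEFM (14.5 to 47.2) and PAX2 (17.2 to 68.2) were near the lower end, while PTPRC of leukocytes, PECAM1 of endothelium and UMOD of kidney tubule stood at 0 to 12.6.

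Wildtype basal replicate 1 stood apart from the other 17 libraries, and it touched most members. Its counts came from transcripts with a mean GC content of 52.5%, against 49.2 to 50.1% in the others. Of the 15 members with a GC content of at most 50%, 13 lay below both other wildtype basal libraries in it and 2 lay above. Of the 17 members with more GC, 15 lay above both, 1 below and 1 between. The largest departure was that of STARD4, at -1.44 on the log2 scale against the mean of replicates 2 and 3, whereas no member differed by more than 0.38 between replicates 2 and 3. Results are therefore given with and without this library, which also enters the shared estimate of the spread for the comparisons that do not hold its group.

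**Figure D1:**
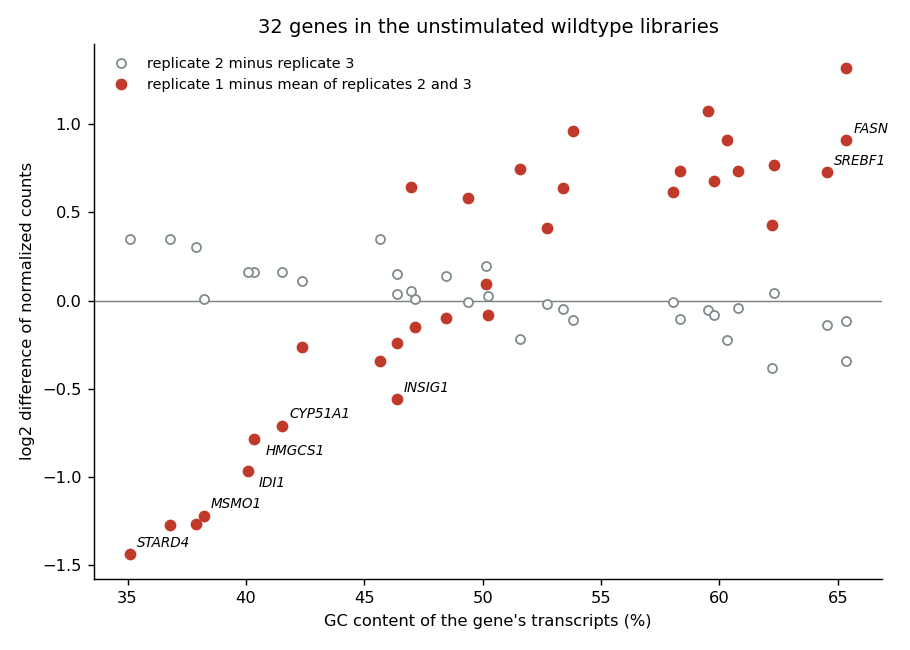
Each of the 32 members is drawn by the GC content of its transcripts (x axis, %) and by a log2 difference of normalized counts (y axis), for wildtype basal replicate 1 minus the mean of replicates 2 and 3 (filled) and for replicate 2 minus replicate 3 (open). The filled points run from -1.44 for STARD4 at the low-GC end to positive values for FASN and SREBF1 at the high-GC end, and the open points stay within 0.38 of 0.

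The first comparison asked what 1 h of isoproterenol did to these genes in wildtype cells. It raised 2 of the 32 members and lowered none, IDI1 by 1.89-fold and INSIG1 by 1.56-fold, where 0.464% of all 15519 genes were called (edgeR quasi-likelihood test, Benjamini-Hochberg adjusted p under 0.05). At an unadjusted p under 0.05 there were 8 members, against 10.5% of all genes. The 3 stimulated libraries lay above all basal ones in 5 members and below them in 3, against 4.85% and 4.16% of all genes. Counts below are per library after TMM scaling, in the order of the replicates. With all libraries the median log2 change was -0.10 over the members and 0.00 over all genes. The sign of 17 members depended on wildtype basal replicate 1, as given below.

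IDI1 codes for isopentenyl-diphosphate isomerase, which interconverts the pair of isoprene units from which farnesyl chains are built. It had 881, 1818 and 1624 normalized counts in the basal wildtype libraries and 2852, 2623 and 2671 after isoproterenol. Every stimulated library lay above every basal one. The log2 fold change was 0.91 (SE 0.17, adjusted p = 0.014), and 0.66 (SE 0.06, adjusted p = 2e-06) without basal replicate 1, so the fold fell from 1.89 to 1.58. Of the replicates left out in turn, the call was lost without stimulated replicate 1 (adjusted p = 0.082) or 3 (0.053).

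INSIG1, the sterol-dependent anchor of SCAP, had 2436, 3780 and 3402 normalized counts at basal and 5128, 4855 and 5018 after isoproterenol in wildtype cells, again without overlap. Its log2 fold change was 0.64 (SE 0.11, adjusted p = 0.0078), and 0.48 (SE 0.05, adjusted p = 1.5e-05) without basal replicate 1. With the 6 wildtype libraries alone, neither gene was called (adjusted p = 0.95 for both, with 0.0903% of all genes called). In bulk RNA, a change in some of the cells and a smaller change in all of them cannot be told apart.

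The other 30 members had log2 changes from -0.39 (FASN) to 0.56 (MSMO1) in wildtype cells, with none called. MSMO1, which removes methyl groups from the sterol ring, had 269, 627 and 623 normalized counts at basal and 753, 742 and 747 after isoproterenol. All 3 stimulated libraries were above the basal ones, and the log2 change was 0.56 (SE 0.20, adjusted p = 0.37) with all libraries and 0.26 (SE 0.07, adjusted p = 0.085) without basal replicate 1. With offsets for GC content and length it was 0.36 and called (adjusted p = 0.011), where 1.46% of all genes were. Leaving out basal replicate 1 turned the sign of 17 members, among them HMGCS1 (0.20 to -0.02), STARD4 (0.32 to -0.03) and MVD (-0.39 to 0.19), none of which was called either way.

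The same comparison in the β-arrestin1/2 KO line also raised IDI1 and INSIG1, with no other member called, where 1.13% of all genes were. The same 2 had an unadjusted p under 0.05, against 8.31% of all genes. The stimulated libraries lay above all basal ones in 10 members and below them in 8, against 15.4% and 14.4% of all genes. IDI1 had 1529, 1361 and 1451 normalized counts at basal and 2882, 2845 and 2886 after isoproterenol. The stimulated libraries were tightly grouped and well above the basal ones, with a log2 fold change of 0.99 (SE 0.17, adjusted p = 0.004), or 1.98-fold. INSIG1 went from 3653, 3521 and 3565 to 6477, 6680 and 6277, also without overlap. Its log2 fold change was 0.86 (SE 0.11, adjusted p = 0.00024), or 1.81-fold. Both calls were kept in all 14 alternatives run, with log2 changes of 0.89 to 1.03 for IDI1 and 0.83 to 0.87 for INSIG1.

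Without wildtype basal replicate 1 in the shared estimate of the spread, 8 members were called in the β-arrestin1/2 KO line, where 11.7% of all genes were. The log2 changes themselves hardly moved. STARD4, a carrier of cholesterol between membranes, had 817, 837 and 810 normalized counts at basal and 1105, 1038 and 1134 after isoproterenol, a log2 change of 0.41 (SE 0.07, adjusted p = 0.0023). HMGCS1, which makes HMG-CoA at the head of the mevalonate pathway, went from 7419, 7296 and 7665 to 8926, 8629 and 9025, a log2 change of 0.25 (SE 0.04, adjusted p = 0.00097). Neither gene had overlapping groups.

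CYP51A1, the lanosterol demethylase, changed by 0.24 (adjusted p = 0.0034) and MSMO1 by 0.22 (adjusted p = 0.017) on the log2 scale in that fit, while FASN (-0.21, adjusted p = 0.011) and FADS2 (-0.14, adjusted p = 0.031) were lower. With all 18 libraries these 6 members had adjusted p-values of 0.68 to 0.83. GC content moved with this pattern. The 4 members that were higher have transcripts with 35.1 to 41.5% GC and the 2 that were lower have 59.8 and 65.4%, and the mean GC content of the libraries was 49.8 to 50.1% at basal and 49.3 to 49.4% after isoproterenol in this line. With offsets for GC content and length the log2 changes were 0.23 for STARD4, 0.15 for HMGCS1, 0.16 for CYP51A1, 0.09 for MSMO1, 0.04 for FASN and -0.02 for FADS2, and none of the 6 was called (adjusted p from 0.051 for HMGCS1 to 0.91 for FADS2). IDI1 (0.89) and INSIG1 (0.83) stayed called under those offsets.

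The other 24 members in the β-arrestin1/2 KO line had log2 changes from -0.29 (PMVK) to 0.25 (INSIG2) and were called in neither fit. INSIG2, the second INSIG gene, had 263 to 298 normalized counts at basal and 286 to 368 after isoproterenol in this line, with groups that overlapped. Its log2 change was 0.25 (SE 0.23, adjusted p = 0.82), and 0.25 (SE 0.11, adjusted p = 0.18) without wildtype basal replicate 1.

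In the Gαs KO line none of the 32 members passed the test after isoproterenol, and 0.0% of all genes were called. None of the members had an unadjusted p under 0.05 either, where 1.05% of all genes did, and DESeq2's Wald test called 0 members and 8 genes. No member lay higher without overlap and 4 lay lower, against 4.9% and 5.58% of all genes. IDI1 had 1560, 1481 and 1559 normalized counts at basal and 1488, 1477 and 1416 after isoproterenol. INSIG1 had 2841, 2754 and 2684 at basal and 2727, 2729 and 2573 after isoproterenol. The stimulated libraries overlapped the basal ones for both genes. The log2 changes were -0.07 (SE 0.17) for IDI1 and -0.04 (SE 0.11) for INSIG1, and over the 32 members they lay between -0.12 (FADS2) and 0.17 (FDFT1).

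**Figure D2:**
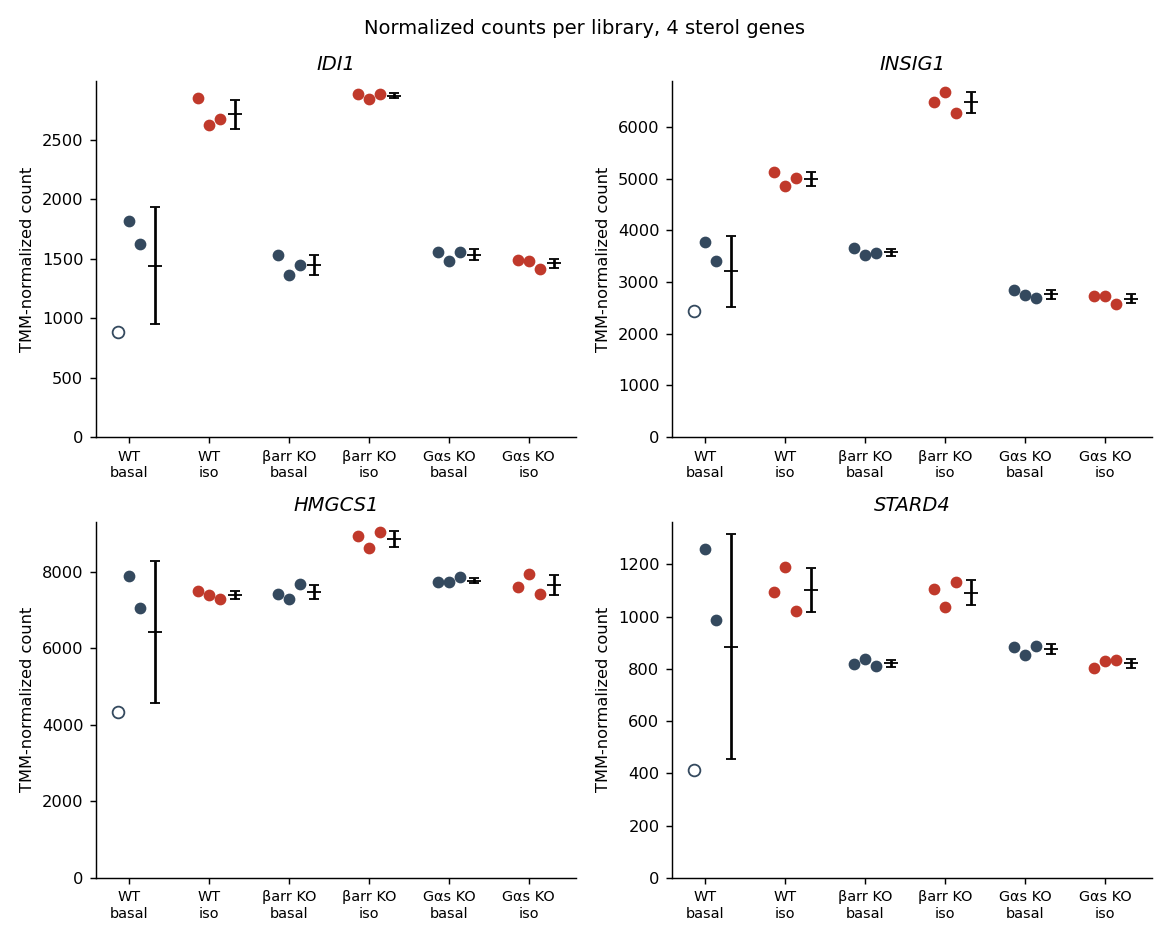
TMM-normalized counts (y axis, from 0) of IDI1, INSIG1, HMGCS1 and STARD4 are drawn for each library of the 6 groups (x axis), basal in dark blue and isoproterenol in red, with the mean ± SD of the 3 replicates as black bars and wildtype basal replicate 1 as an open circle. IDI1 and INSIG1 sit higher after isoproterenol in wildtype cells and in the β-arrestin1/2 KO line and overlap in the Gαs KO line, and the open circle is the lowest point of each panel.

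**Figure D3:**
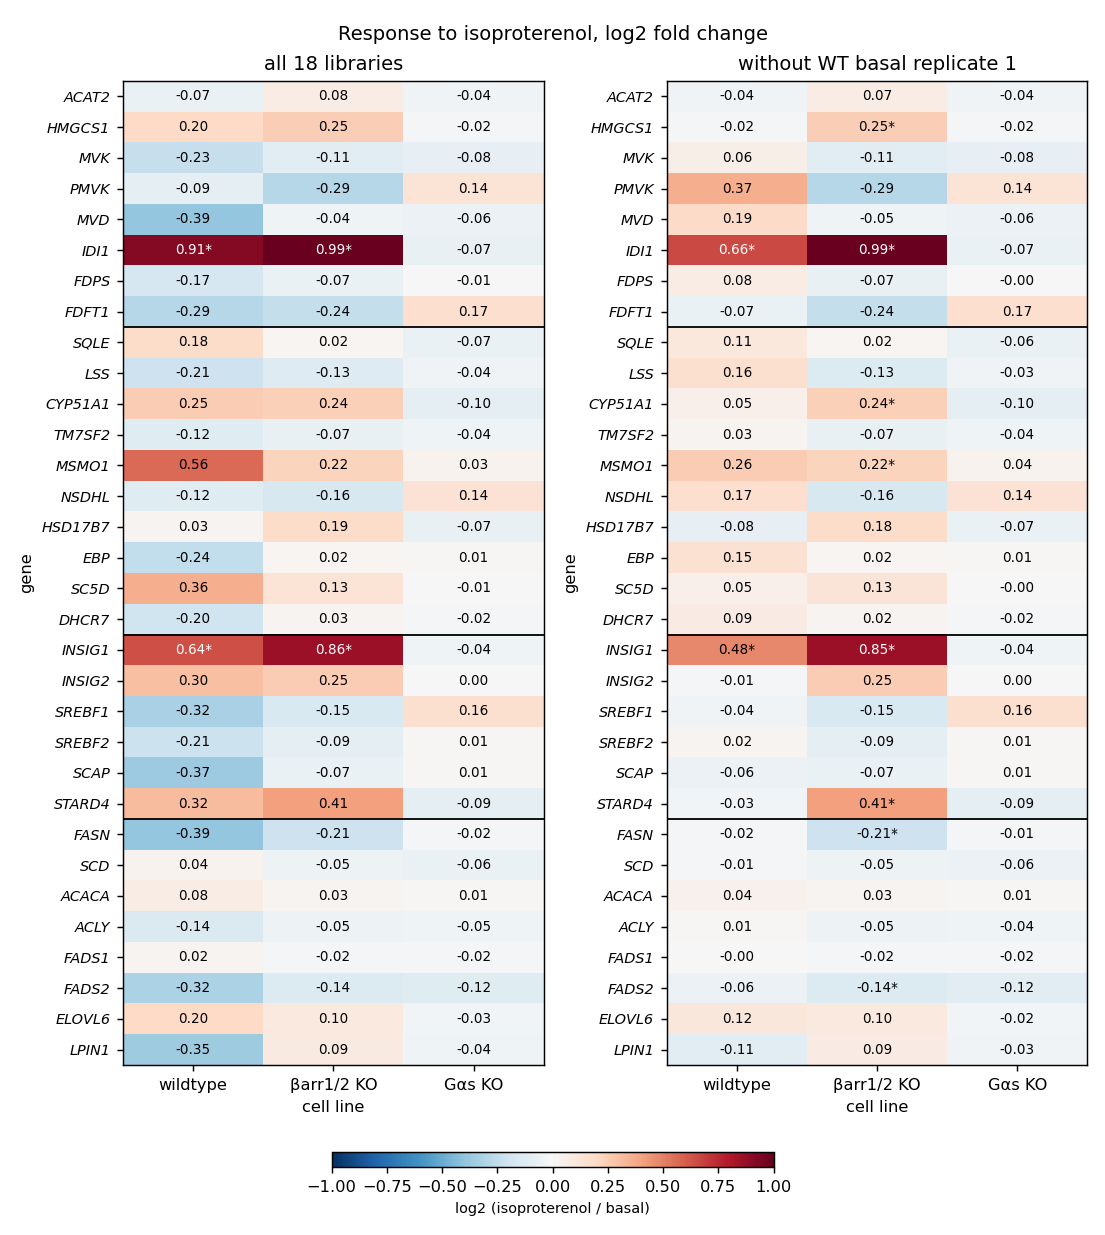
Log2 fold changes after isoproterenol are shown as colour and number for the 32 members (rows, with lines between the 4 roles) in the 3 cell lines (columns), with all 18 libraries on the left and without wildtype basal replicate 1 on the right, and an asterisk marks an adjusted p under 0.05. The asterisks stand at IDI1 and INSIG1 on the left, with 6 more genes in the β-arrestin1/2 KO column on the right, and the Gαs KO column has none.

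Whether the responses differed between lines was tested as an interaction. Between the KO lines 1 member differed, INSIG1, where 0.406% of all genes were called, 0.387% with a larger value in β-arrestin1/2 KO. At an unadjusted p under 0.05 there were 2 members, against 4.82% of all genes. Its response was larger in the β-arrestin1/2 KO line by 0.90 on the log2 scale (SE 0.15, adjusted p = 0.0096), and that call was kept in all 20 alternatives. The difference for IDI1 was 1.06 (SE 0.24), with an adjusted p of 0.084, and it passed the threshold in 6 of the 20 alternatives, among them DESeq2's Wald test (adjusted p = 0.003) and the fit without wildtype basal replicate 1 (9.2e-08).

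Between the Gαs KO line and wildtype cells none of the 32 members was called in the difference, where 0.161% of all genes were, 0.00644% higher and 0.155% lower. IDI1 differed by -0.99 (SE 0.24, adjusted p = 0.23) and INSIG1 by -0.69 (SE 0.15, adjusted p = 0.16) on the log2 scale, and 4 members had an unadjusted p under 0.05, against 4.63% of all genes. DESeq2's Wald test called both, with adjusted p-values of 0.021 for IDI1 and 0.01 for INSIG1, where 0.327% of all genes were called. Without wildtype basal replicate 1 the differences were -0.73 (SE 0.08, adjusted p = 4.9e-05) and -0.52 (SE 0.07, adjusted p = 0.0003). Each value was thus smaller and both were called.

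Between β-arrestin1/2 KO and wildtype cells the response of no member differed by the test, where 0.168% of all genes were called, 0.142% higher and 0.0258% lower. None had an unadjusted p under 0.05, against 5.57% of all genes, and DESeq2's Wald test also called 0 members. INSIG1 differed by 0.21 (SE 0.15) and IDI1 by 0.07 (SE 0.24). Without wildtype basal replicate 1, where 8.25% of all genes were called, 5 members were, of which INSIG1 (0.38, adjusted p = 0.0047), IDI1 (0.33, adjusted p = 0.019), HMGCS1 (0.26, adjusted p = 0.019) and STARD4 (0.44, adjusted p = 0.027) responded more in the β-arrestin1/2 KO line. The fifth was PMVK, phosphomevalonate kinase, at -0.65 (adjusted p = 0.022). In that fit IDI1 was also called between these lines at basal, where 46.7% of all genes were. It had 1529, 1361 and 1451 normalized basal counts in the β-arrestin1/2 KO line, against 1818 and 1624 in wildtype replicates 2 and 3. After isoproterenol it had 2882, 2845 and 2886, against 2852, 2623 and 2671 in wildtype cells.

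With offsets for GC content and length, these 5 differences were 0.23 for INSIG1, 0.14 for IDI1, 0.11 for HMGCS1, 0.17 for STARD4 and -0.32 for PMVK, and none was called (adjusted p from 0.33 to 0.52). IDI1 turned sign when wildtype basal replicate 2 (-0.13) or 3 (-0.03) was left out instead. The 3 differences share their groups in pairs, so they are not independent of each other.

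Other genes of the same pathways came from 2 further lists, 16 sterol genes and 19 fatty acid genes that are not members. In wildtype cells none of the 35 was called after isoproterenol (0.464% of all genes). In β-arrestin1/2 KO cells 1 of 16 and 0 of 19 were (1.13% of all genes), and in the Gαs KO line 0 and 0 (0.0% of all genes). At an unadjusted p under 0.05 there were 1 and 2 in wildtype cells (10.5% of all genes), 1 and 0 in the β-arrestin1/2 KO line (8.31%) and 0 of both lists in the Gαs KO line (1.05%). The called genes numbered, without wildtype basal replicate 1, 1 and 0 in wildtype cells (1.1% of all genes), 4 and 3 in the β-arrestin1/2 KO line (11.7%) and 0 of both lists in the Gαs KO line. The gene called with all libraries was MYLIP, which codes for a ubiquitin ligase and is known as a target of the sterol-sensing LXR receptors.

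MYLIP had 402, 408 and 450 normalized counts in the basal β-arrestin1/2 KO line and 726, 874 and 795 after isoproterenol, a log2 change of 0.93 (SE 0.10, adjusted p = 2.5e-05). In wildtype cells it had 766, 852 and 822 at basal and 1039, 1122 and 1090 after isoproterenol. Those groups did not overlap, and the log2 change of 0.41 (SE 0.09) had an adjusted p of 0.087. In Gαs KO cells the groups, 574, 570 and 658 against 586, 700 and 631, overlapped. The β-arrestin1/2 KO response exceeded the Gαs KO response by 0.84 (SE 0.14, adjusted p = 0.0061).

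The next comparisons asked how unstimulated cells of the 3 lines differed. Many genes of any kind did, so counts of members have to be read against a high background. In β-arrestin1/2 KO against wildtype cells 14 of the 32 members were called, 3 higher and 11 lower, where 33.6% of all genes were, and 17 had an unadjusted p under 0.05, against 43.1%. In Gαs KO against wildtype cells 11 were called, 3 higher and 8 lower, where 31.3% of all genes were, and 14 had an unadjusted p under 0.05, against 41.4%. Counts this near to the background are no result about the members as a group. Both KO lines are compared with the same 3 wildtype libraries, so agreement between them is not independent.

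SREBF1 had the largest difference in both. It had 2557, 1470 and 1620 normalized counts in wildtype cells, 857, 626 and 711 in the β-arrestin1/2 KO line and 660, 618 and 589 in the Gαs KO line. All KO libraries lay below all wildtype ones. The log2 difference from wildtype was -1.37 (SE 0.17, adjusted p = 1.7e-05) in β-arrestin1/2 KO and -1.60 (SE 0.17, adjusted p = 3.5e-06) in the Gαs KO line, and -1.08 and -1.31 without wildtype basal replicate 1. SREBF2, its paralog, had 8024, 5212 and 5245 counts in wildtype cells, 5020, 4900 and 5184 in the β-arrestin1/2 KO line and 7010, 7233 and 6821 in the Gαs KO line. It was called in neither line against wildtype with all libraries, but without wildtype basal replicate 1 it was higher in the Gαs KO line by 0.42 (adjusted p = 1.9e-07).

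FASN, the fatty acid synthase, had 45137, 23074 and 25043 normalized counts in wildtype cells, 13806, 12333 and 12691 in the β-arrestin1/2 KO line and 15081, 14937 and 14615 in the Gαs KO line. The KO libraries were below each wildtype library. The log2 difference was -1.26 (SE 0.17, adjusted p = 3.2e-05) in β-arrestin1/2 KO and -1.06 (SE 0.17, adjusted p = 0.00016) in the Gαs KO line, and -0.89 (SE 0.05) and -0.69 (SE 0.05) without wildtype basal replicate 1, both called.

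ACLY, which makes cytosolic acetyl-CoA from citrate, had 14438, 10758 and 10919 counts in wildtype cells, 6348, 6436 and 6788 in the β-arrestin1/2 KO line and 9702, 9877 and 9511 in the Gαs KO line, with no overlap between any pair of lines. It was lower by 0.88 (SE 0.09, adjusted p = 1.8e-06) in β-arrestin1/2 KO and by 0.31 (SE 0.09, adjusted p = 0.013) in the Gαs KO line on the log2 scale. LPIN1, lipin 1, a phosphatidate phosphatase of glycerolipid synthesis, had 1176, 768 and 740 counts in wildtype cells against 334, 449 and 553 in the β-arrestin1/2 KO line, a log2 difference of -1.01 (SE 0.24, adjusted p = 0.0038). In Gαs KO cells it had 703, 741 and 655, and it was not called there (adjusted p = 0.27). Wildtype basal replicate 1 had the highest count of both genes, so these differences are smaller without it. Over fits that left out 1 replicate in turn, the smallest β-arrestin1/2 KO differences were -0.73 for ACLY and -0.76 for LPIN1, both still called. The ACLY call in the Gαs KO line was also kept without that library.

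With all libraries, 5 of the 8 fatty acid and glycerolipid genes were called lower and none higher in the β-arrestin1/2 KO line (FASN, SCD, ACACA, ACLY and LPIN1), where 17.9% of all genes were called lower and 15.7% higher. In the Gαs KO line 4 were called lower and none higher (FASN, SCD, ACLY and FADS1), where 17.1% of all genes were called lower and 14.2% higher. FADS2, a fatty acid desaturase, had 4294, 2615 and 2766 normalized counts in wildtype cells and 3715, 3515 and 3522 in the β-arrestin1/2 KO line. It was called higher there once wildtype basal replicate 1 was left out, by 0.42 on the log2 scale (SE 0.04, adjusted p = 8e-07). With all libraries the median log2 difference of the 8 was -0.38 and -0.23, against 0.02 and 0.01 over all genes. Wildtype basal replicate 1 lay above both other basal wildtype libraries in FASN, ACLY, FADS2 and LPIN1. In SCD, ACACA, FADS1 and ELOVL6 it lay below both, so the size of each median depends on that library. The calls of lower genes named here were kept without it. SCD, the stearoyl-CoA desaturase, was lower by only 0.17 (adjusted p = 0.018) in the first and 0.24 (adjusted p = 0.0023) in the second.

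The sterol genes went in both directions. MSMO1 had 269, 627 and 623 normalized counts in wildtype cells, 1004, 957 and 1030 in the β-arrestin1/2 KO line and 1097, 993 and 1086 in the Gαs KO line. All KO libraries were higher than every wildtype one. The log2 difference was 0.98 (SE 0.20, adjusted p = 0.0014) and 1.07 (SE 0.20, adjusted p = 0.00075), and 0.68 and 0.76 without wildtype basal replicate 1.

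NSDHL, a sterol dehydrogenase that works beside MSMO1 in removing the methyl groups, had 1204, 667 and 775 counts in wildtype cells, 528, 516 and 533 in the β-arrestin1/2 KO line and 532, 526 and 576 in the Gαs KO line. It was lower without overlap, by 0.75 (SE 0.15, adjusted p = 0.0013) and 0.70 (SE 0.15, adjusted p = 0.0023) on the log2 scale. Without wildtype basal replicate 1 the log2 differences were -0.45 and -0.41, with both calls kept. The Gαs KO call was lost when just the libraries compared were fitted (adjusted p = 0.1). MSMO1 and NSDHL, which act at the same step, thus lay on opposite sides of wildtype in both KO lines.

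EBP, a sterol isomerase, had 2549, 1262 and 1363 normalized counts in wildtype cells, 908, 933 and 892 in the β-arrestin1/2 KO line and 1520, 1584 and 1492 in the Gαs KO line. Only the β-arrestin1/2 KO libraries lay apart, with a log2 difference from wildtype of -0.92 (SE 0.19, adjusted p = 0.0011), and -0.52 without wildtype basal replicate 1. In Gαs KO cells it was -0.17 (adjusted p = 0.51), and 0.22 (adjusted p = 0.021) without that library. In that comparison 7 members turned sign when the library was left out, EBP, PMVK, IDI1, FDPS, HSD17B7, DHCR7 and FADS2, none of them called with all libraries. Without the library EBP, PMVK, IDI1 and DHCR7 were called with the turned sign, where 45.9% of all genes were called.

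CYP51A1 had 1611, 2782 and 2490 counts in wildtype cells, 1852, 1810 and 1792 in the β-arrestin1/2 KO line and 1571, 1551 and 1596 in the Gαs KO line. It was lower by 0.54 (SE 0.13, adjusted p = 0.0047) in the Gαs KO line on the log2 scale, and by 0.75 (SE 0.05) without wildtype basal replicate 1. FDFT1, squalene synthase, had 599, 399 and 402 counts in wildtype cells, 446, 542 and 460 in the β-arrestin1/2 KO line and 321, 274 and 312 in the Gαs KO line. It was lower by 0.63 (SE 0.14, adjusted p = 0.0032) in the Gαs KO line, and by 0.41 without that library.

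**Figure D4:**
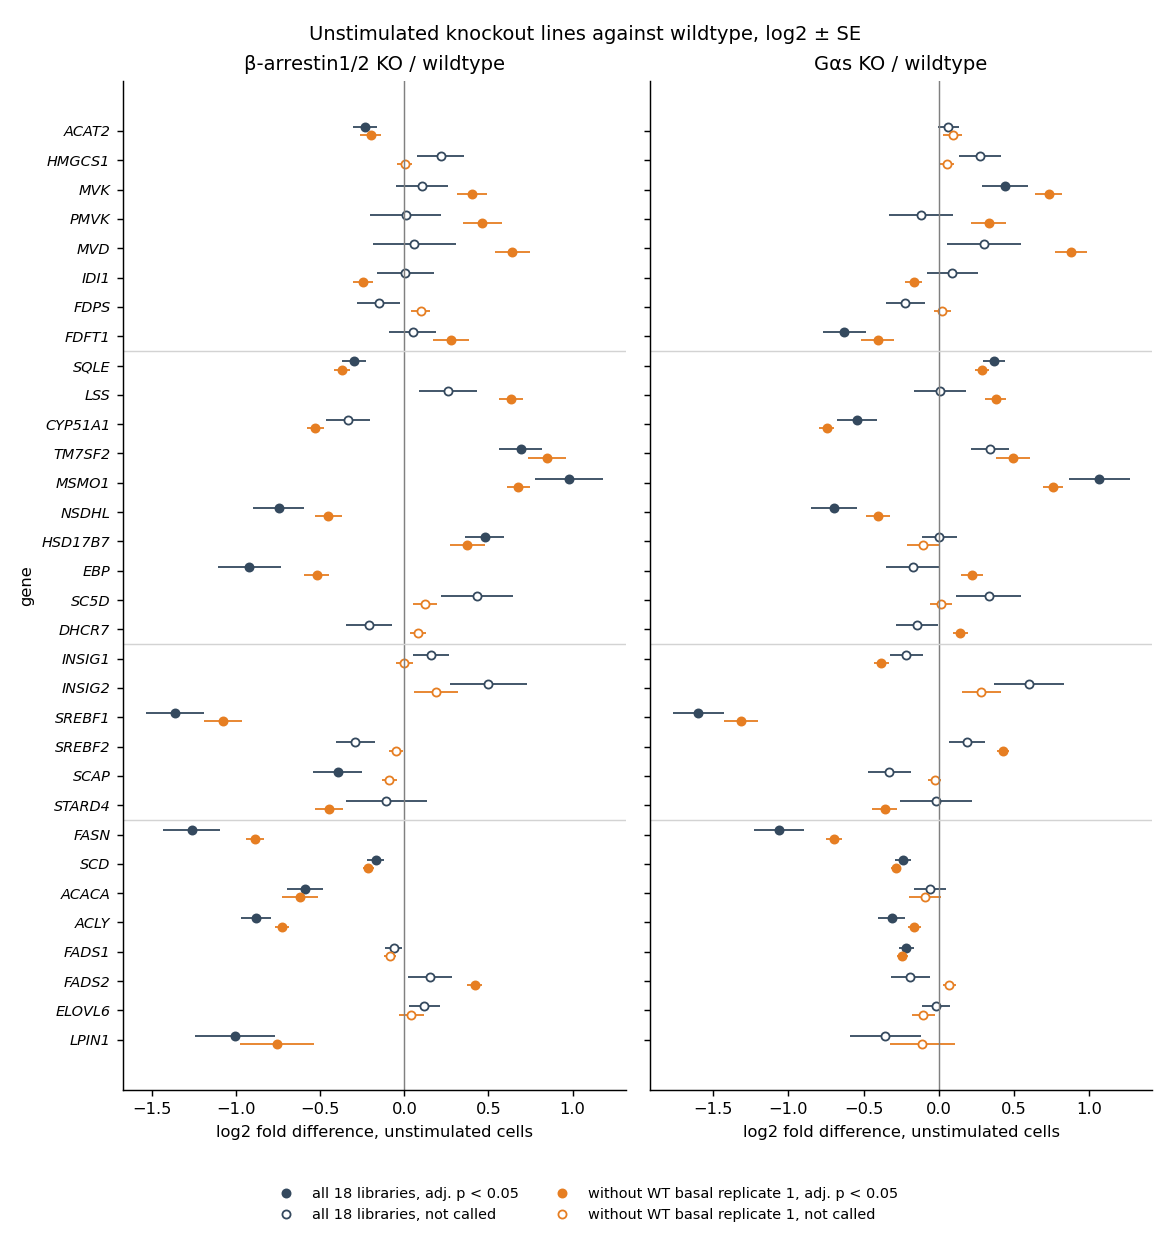
Log2 fold differences between unstimulated KO and wildtype cells (x axis) are drawn with their SE as bars for the 32 members (y axis), for β-arrestin1/2 KO on the left and Gαs KO on the right, with all 18 libraries in dark blue and without wildtype basal replicate 1 in orange, filled where the adjusted p is under 0.05. With all libraries SREBF1 and FASN lie farthest to the left and MSMO1 farthest to the right in both panels, and the orange bars are shorter for most members.

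**Figure D5:**
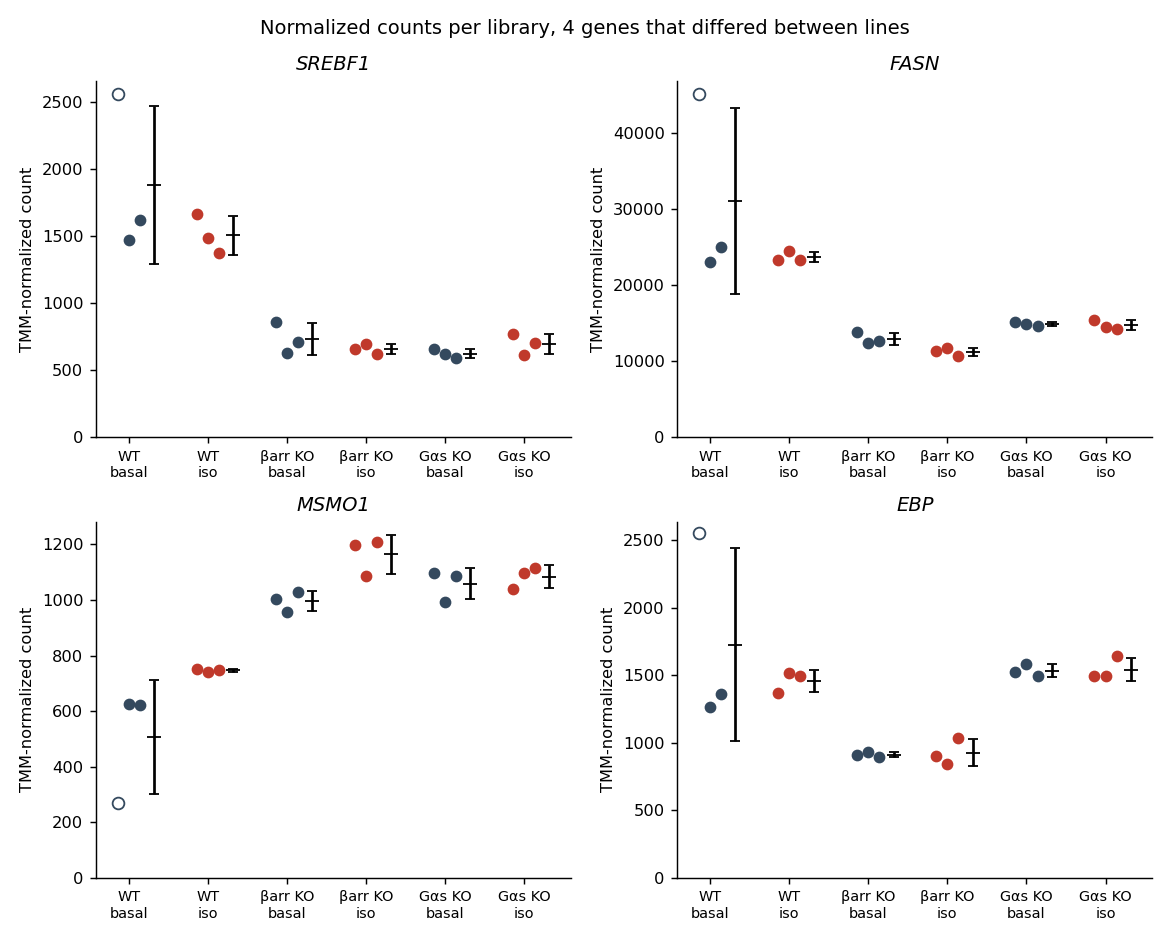
TMM-normalized counts (y axis, from 0) of SREBF1, FASN, MSMO1 and EBP are drawn for each library of the 6 groups (x axis), basal in dark blue and isoproterenol in red, with the mean ± SD of the 3 replicates as black bars and wildtype basal replicate 1 as an open circle. SREBF1 and FASN sit lower and MSMO1 higher in both KO lines than in wildtype cells, and EBP sits lower in the β-arrestin1/2 KO line.

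The KO lines were also compared with each other, which leaves the departing wildtype library out of the means. Of the 32 members 10 were called, 4 higher and 6 lower in the β-arrestin1/2 KO line, where 26.2% of all genes were called. At an unadjusted p under 0.05 there were 14, against 36.6%, and libraries did not overlap in 11 that were higher and 13 that were lower, against 27.4% and 28.6%. EBP was lower in β-arrestin1/2 KO than in Gαs KO cells by 0.75 (SE 0.18, adjusted p = 0.0062) on the log2 scale, ACLY by 0.57 (SE 0.09, adjusted p = 0.00015) and SREBF2 by 0.48 (SE 0.12, adjusted p = 0.0063). FDFT1 was higher by 0.68 (SE 0.14, adjusted p = 0.002).

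SQLE, squalene epoxidase, had 2298, 2314 and 2368 normalized counts in the β-arrestin1/2 KO line, 3693, 3496 and 3861 in the Gαs KO line and 2549, 3058 and 2973 in wildtype cells. The 3 lines did not overlap. It was lower in β-arrestin1/2 KO than in Gαs KO cells by 0.66 (SE 0.07, adjusted p = 4e-06), lower than wildtype by 0.30 (adjusted p = 0.0047), and higher in Gαs KO than in wildtype cells by 0.37 (adjusted p = 0.0011). ACACA, the acetyl-CoA carboxylase that commits acetyl-CoA to fatty acids, had 1645, 1517 and 1456 counts (9 of its 23 annotated transcripts) in the β-arrestin1/2 KO line, 2268, 2294 and 2117 in the Gαs KO line and 2219, 2489 and 2258 in wildtype cells. Its groups were apart only for β-arrestin1/2 KO, with -0.53 (SE 0.11, adjusted p = 0.0014) against Gαs KO and -0.59 (SE 0.11, adjusted p = 0.00051) against wildtype cells.

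INSIG1 at basal was higher in β-arrestin1/2 KO than in Gαs KO cells by 0.38 (SE 0.11, adjusted p = 0.018) on the log2 scale, with wildtype cells called different from neither (0.16, adjusted p = 0.28, and -0.22, adjusted p = 0.15). Without wildtype basal replicate 1 the Gαs KO level was below wildtype by 0.38 (adjusted p = 6.2e-06) and the β-arrestin1/2 KO level differed by 0.00. ACAT2, a thiolase at the start of the pathway, was lower in the β-arrestin1/2 KO line than in the other lines by 0.24 and 0.30 (adjusted p = 0.018 and 0.005).

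The remaining called members in the basal comparisons had log2 differences within 0.70 of 0. HSD17B7, counted over 10 of its 11 annotated transcripts, was higher in the β-arrestin1/2 KO line than in wildtype by 0.48 and than in Gαs KO cells by 0.47, and TM7SF2, a sterol reductase, was higher than in wildtype by 0.69. MVK, mevalonate kinase, was higher in Gαs KO than in wildtype cells by 0.44. Its normalized counts were 590, 604 and 620 in Gαs KO and 606, 359 and 369 in wildtype cells. Without wildtype basal replicate 1 that call was kept. MVK was then also called higher in β-arrestin1/2 KO than in wildtype cells, where 46.7% of all genes were called. SCAP was lower in β-arrestin1/2 KO than in wildtype cells by 0.40 (adjusted p = 0.043), a call lost without wildtype basal replicate 1 (-0.09). FADS1 was lower in the Gαs KO line than in wildtype by 0.21 and than in the β-arrestin1/2 KO line by 0.15.

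Of the 14, 11 and 10 calls made with all libraries, 13, 11 and 10 were kept with the same sign when wildtype basal replicate 1 was left out, and 9, 10 and 9 members were added, with 46.7, 45.9 and 45.3% of all genes called. When the fit held just the 6 libraries compared, 5 and 2 members were called against wildtype (10.3% and 10.8% of all genes). SREBF1 and FASN kept their calls in both, and MSMO1 lost its call in both (adjusted p = 0.093 and 0.078). In the Gαs KO line NSDHL, CYP51A1 and FDFT1 lost theirs too (adjusted p = 0.1, 0.15 and 0.09). The EBP call in the β-arrestin1/2 KO line was lost in 1 of its 14 alternatives (adjusted p = 0.074). Among the genes outside the list, 7 of 16 sterol genes and 11 of 19 fatty acid genes were called in β-arrestin1/2 KO against wildtype cells, 2 and 3 of them higher, where 33.6% of all genes were called and 15.7% higher. In Gαs KO against wildtype cells it was 6 and 4, with 1 of each higher, where 31.3% of all genes were called and 14.2% higher. Between the KO lines it was 5 and 4, where 26.2% of all genes were called. These counts were, without wildtype basal replicate 1, 10 and 13, 9 and 10, and 11 and 9, where 46.7, 45.9 and 45.3% of all genes were called.

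Levels between genes were compared as TPM, which scale counts by transcript length and by the library's total. Over the 5 groups other than wildtype basal, SCD had the highest group means at 275 to 340 TPM, followed by FASN at 167 to 336 and HMGCS1 at 240 to 301, and those ranges overlap. INSIG1 ran from 105 TPM in stimulated Gαs KO cells to 249 TPM in stimulated β-arrestin1/2 KO cells, a span of 2.37-fold and the widest of the members. IDI1 ran from 71.9 to 138 TPM. The lowest were INSIG2 (11.4 to 16.7 TPM) and LPIN1 (9.41 to 14.8 TPM), and DHCR7, a reductase late in cholesterol synthesis, had the narrowest span at 128 to 138 TPM.

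Within genes, a single transcript made up most of the counts of the 2 responding members. IDI1-201 held 87.3 to 91.6% of the IDI1 counts and INSIG1-201 held 84.9 to 91.6% of those of INSIG1, as group means. ACACA split differently between lines. Of its counts ACACA-237 held 13.0% ± 1.68 (SD, n = 3) in basal wildtype cells and 12.4% ± 3.23 after isoproterenol, 39.5% ± 2.29 and 43.2% ± 2.71 in the Gαs KO line, and 29.7% ± 10.4 and 31.3% ± 15.1 in the β-arrestin1/2 KO line, with ACACA-231 holding most of the rest. These shares are estimates and were not tested.

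The count table holds 9 of the 23 annotated transcripts of ACACA, 7 of the 11 of LSS and 10 of the 11 of HSD17B7, so the gene sums of these 3 members, and the differences given for them, may be incomplete. Some members share bases with other genes. FADS1 and FADS2 overlap on opposite strands, FADS2 also overlaps FEN1, and ACAT2 overlaps TCP1, MVK overlaps MMAB, SREBF1 overlaps RAI1 and TM7SF2 overlaps VPS51. Whether counting used the strand is not given in the sources used here, so the values of these members are uncertain to the extent that reads were split between them.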

How the data were processed

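Poly-A RNA of 18 libraries, 3 for each of 6 groups, was sequenced as read pairs. The authors deposited expected counts, which Salmon 1.7.0 estimated for each of 184844 transcripts and each library, without normalization for depth or length. Per the submitters' notes the build was GRCh38 and DESeq2 was used for testing. The transcript index is not given in the sources used here. All library columns were used and 0 were left out.

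For the results above, 161798 transcripts were joined by identifier to 34255 genes of GENCODE release 29 (92.9 to 93.7% of the counts of a library) and summed and rounded per gene. Transcripts that matched no gene stayed out. In R 4.3.3, edgeR 4.0.16 scaled libraries by TMM, kept 15519 genes with filterByExpr by group, and fitted a quasi-likelihood model with a mean for each group to all 18 libraries. P-values were adjusted over these genes by the Benjamini-Hochberg method, with calls under 0.05. The SE was taken as the log2 fold change divided by the square root of F. TPM used annotated lengths. Python 3.11.15 with pandas 2.3.3 and numpy 2.4.6 made the summaries. The model was tested on simulated data.

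Genes with full values were the members called in a wildtype or β-arrestin1/2 KO response or in a difference between responses and, for each basal comparison, the 6 largest called. Members shown for β-arrestin1/2 KO cells without wildtype basal replicate 1, PMVK, INSIG2, FADS2 and the smaller basal differences were chosen after their values were seen, as were those for ACACA transcripts. The members, the 4 roles and the 2 further lists of 16 sterol and 19 fatty acid genes were chosen with earlier results of these data known. Alternatives were DESeq2 1.42.0 (size factors and Wald test), no filter beyond 1 count, only the libraries compared, a replicate block, offsets from lowess fits (span 0.3) on GC content and length, and each replicate left out in turn. Chosen after seeing the data was leaving wildtype basal replicate 1 out of comparisons that do not hold its group, and out of fits on the groups compared only. Replicate numbers are not stated to pair the samples, so libraries were treated as unpaired. Same-numbered replicates did not deviate together (correlations from -0.0993 to 0.0766 over 45 pairs of libraries). Promoter windows came from RefSeq (GRCh38.p14), with the motifs named above searched on both strands.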

Additional observations from a re-analysis of the deposited data

Results flagged for a closer look

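INSIG1 is listed here because its response to isoproterenol differed between the β-arrestin1/2 KO line and the Gαs KO line by the test of the difference itself. The difference was 0.90 on the log2 scale (SE 0.15, edgeR adjusted p = 0.0096), with a log2 change of 0.86 in the first line, higher in 3 of 3 stimulated libraries than in any basal one, and of -0.04 in the second. Over the 20 alternatives it ranged from 0.87 to 0.92.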

How the results depend on the processing

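Leaving out 1 replicate in turn gave 1 to 2 members for the wildtype response, 2 to 8 for β-arrestin1/2 KO, 0 for Gαs KO, 0 to 5 for the difference β-arrestin1/2 KO minus wildtype, 0 to 2 for Gαs KO minus wildtype and 1 to 5 for β-arrestin1/2 KO minus Gαs KO, and 11 to 22, 10 to 21 and 8 to 19 for basal β-arrestin1/2 KO against wildtype, Gαs KO against wildtype and β-arrestin1/2 KO against Gαs KO. Over these fits, in the same order, 0.353 to 1.1%, 0.713 to 11.7% and 0.0% of all genes were called for the responses. For the differences it was 0.0946 to 8.25%, 0.12 to 0.418% and 0.277 to 2.68%. At basal it was 26.0 to 46.7%, 23.4 to 45.9% and 19.4 to 45.3%. Each upper share came without wildtype basal replicate 1. The highest counts other than that for the wildtype response came without wildtype basal replicate 1, and for Gαs KO minus wildtype also without replicate 2. The count of 1 for the wildtype response came without stimulated replicate 1 or 3. With only the libraries compared, the counts were 0 and 5 for the wildtype and β-arrestin1/2 KO responses (0.0903 and 7.94% of all genes). They were 5 for the difference between the KO lines (3.73%), and 5, 2 and 18 at basal (10.3, 10.8 and 48.2%). With that restriction and no wildtype basal replicate 1, 1 and 2 members differed in response from wildtype in the β-arrestin1/2 KO and the Gαs KO line, and 20 at basal in the Gαs KO line. Of all genes, 1.46, 0.381 and 47.1% were called in those comparisons, in that order. DESeq2's Wald test gave 2 for Gαs KO minus wildtype (0.327% of all genes) and 2 for β-arrestin1/2 KO minus Gαs KO (0.769%). The fit to all genes with at least 1 count gave 2 for β-arrestin1/2 KO minus Gαs KO (0.23%). Offsets for GC content and length gave 2 for Gαs KO minus wildtype (0.361% of all genes) and 2 for β-arrestin1/2 KO minus Gαs KO (0.909%). At basal they gave 22, 20 and 19, where 48.4, 46.8 and 43.1% of all genes were called.

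The replicate numbers are not known to pair libraries. A replicate block moved no count of members by over 1.5 times (13, 12 and 10 at basal against 14, 11 and 10). At basal it called 33.1, 31.0 and 25.6% of all genes. The block with the GC and length offsets gave 4 for the wildtype response (1.39% of all genes). It gave 2 for Gαs KO minus wildtype (0.335%) and 2 for β-arrestin1/2 KO minus Gαs KO (0.863%). For basal Gαs KO against wildtype and against β-arrestin1/2 KO it gave 20 and 17 (46.7 and 42.9%). The difference in the IDI1 response between β-arrestin1/2 KO and wildtype cells (0.07) was reversed without wildtype basal replicate 2 (-0.13) or 3 (-0.03) and was 0.33 without replicate 1. The cause was not tested. The SE of the INSIG2 response in the β-arrestin1/2 KO line was 0.23 on the log2 scale with all libraries and 0.11 without wildtype basal replicate 1.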
